A study of Mus musculus with 40 samples.

Results

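Whether T helper 2 (Th2) cells answer a change to T helper 1 (Th1) conditions in the same way with and without Setdb1 was examined gene by gene, as a genotype by switch interaction in RNA. The comparison used 11 of the 18 RNA libraries of the series, which has 40 samples in all. It took the change from Th2 to Th2-Th1 cells in libraries labelled Setdb1 KO and subtracted the same change in wild-type (WT) libraries. A positive interaction means that the libraries labelled Setdb1 KO moved further up, or less far down, than WT. All cells were splenic CD4 T cells of mice on the C57BL/6 background. Th2 WT (n = 3) and Th2 Setdb1 KO (n = 3) cells had spent 6 days with IL-4 at 50 ng/mL, anti-IFN-gamma, and antibodies to CD3 and CD28, with IL-2 added during the culture. Th2-Th1 WT (n = 2) and Th2-Th1 Setdb1 KO (n = 3) cells came from such cultures and were then kept for 2 days with IL-12 at 10 ng/mL and anti-IL-4. No Th2 cells kept for those 2 further days in Th2 medium are among the samples. Antibodies to CD3 and CD28 are listed for the Th2-Th1 cells too, without a separate entry for those 2 days. The switch therefore joins Th1 conditions with added time in culture and any renewed stimulation, and their parts cannot be told apart. Neither the driver of the Setdb1 deletion nor the allele is stated in the labels. The labels do not state that replicates came from separate mice or cultures, so p-values measure only the spread between these libraries, which may be technical.

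SETDB1 is a histone methyltransferase that lays down H3K9me3, which keeps genes and endogenous retroviruses silent. Th2 cells make IL-4, IL-5 and IL-13 under the transcription factor GATA3, and Th1 cells make interferon gamma under T-bet, the product of Tbx21. IL-12 acts through a receptor of the subunits IL-12R beta 1 and beta 2, the kinases JAK2 and TYK2 and the transcription factor STAT4. Committed Th2 cells normally lose the beta 2 subunit and with it much of their answer to IL-12.

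Libraries were not alike in depth. They held 10.141 to 13.258 M reads in Th2 WT, 18.901 to 19.841 M in Th2-Th1 WT, 36.261 to 44.719 M in Th2 Setdb1 KO and, after the switch, 37.208 to 37.603 M. Ribosomal protein genes took 6.29 to 7.09% of the signal in Th2 WT and between 2.08 and 3.10% in the other groups. Depth and genotype cannot be told apart in these files. Setdb1 itself went against the label. It was 694, 933 and 841 in Th2 WT and 1611 and 1594 in Th2-Th1 WT. Libraries labelled Setdb1 KO held 8070, 9044 and 8342 in Th2 and 7389, 5430 and 5914 in Th2-Th1. The values sum reads over the gene and cannot tell deleted exons from the rest, so groups are named by their labels, and each direction below rests on those labels. The Setdb1 interaction was -1.43 ± 0.18 on the log2 scale (limma, adjusted p = 4.49e-06). Suv39h1, which encodes another H3K9 methyltransferase, gave -0.51 ± 0.22 (limma, adjusted p = 0.0761) and did not pass. It passed under 3 of 22 alternative settings, the 11 libraries fitted alone among them.

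On the switch, more genes moved in WT than in libraries labelled Setdb1 KO. The interaction passed for 6126 of 17254 genes tested (35.5%), with 2979 higher (17.3%) and 3147 lower (18.2%), and 4158 differed by at least 2-fold. Of those tested, 15392 met the filter within the 11 libraries. The rest met it only with the other RNA libraries, so the 35.5% also counts genes low in the groups compared. With the 11 libraries fitted alone the interaction passed for 7369 of 15392 genes. Values are the authors' normalised read counts, changes are on log2(value + 1), the test is limma at an adjusted p under 0.05, and ± after a log2 difference is its standard error. The switch by itself was called for 8584 genes in WT (49.8%) and for 4604 in libraries labelled Setdb1 KO (26.7%). The median absolute change over all tested genes was 0.83 in WT and 0.41 in the libraries labelled Setdb1 KO. Genes were then separated by which arm passed. WT alone moved for 3665 of the 6126 genes (59.8%), 1869 up and 1796 down. Libraries labelled Setdb1 KO alone moved for 777 genes (12.7%), 368 up and 409 down. Another 646 genes moved in opposite directions, 304 of them up and 342 down in libraries labelled Setdb1 KO. Both arms moved the same way but unequally for 848 genes, with the larger change in WT for 682 and in libraries labelled Setdb1 KO for 166. The remaining 190 genes passed the interaction while neither arm passed. In WT-only genes the arm that was not called stayed within a log2 change of 0.5 for 1672 of the 1869 that rose and 1484 of the 1796 that fell. With the 11 libraries fitted alone, genes moving in opposite directions numbered 490 and 519, up and down in libraries labelled Setdb1 KO. The plot of the 2 switches against each other shows the WT-only genes along its horizontal axis.

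**Figure D1:**
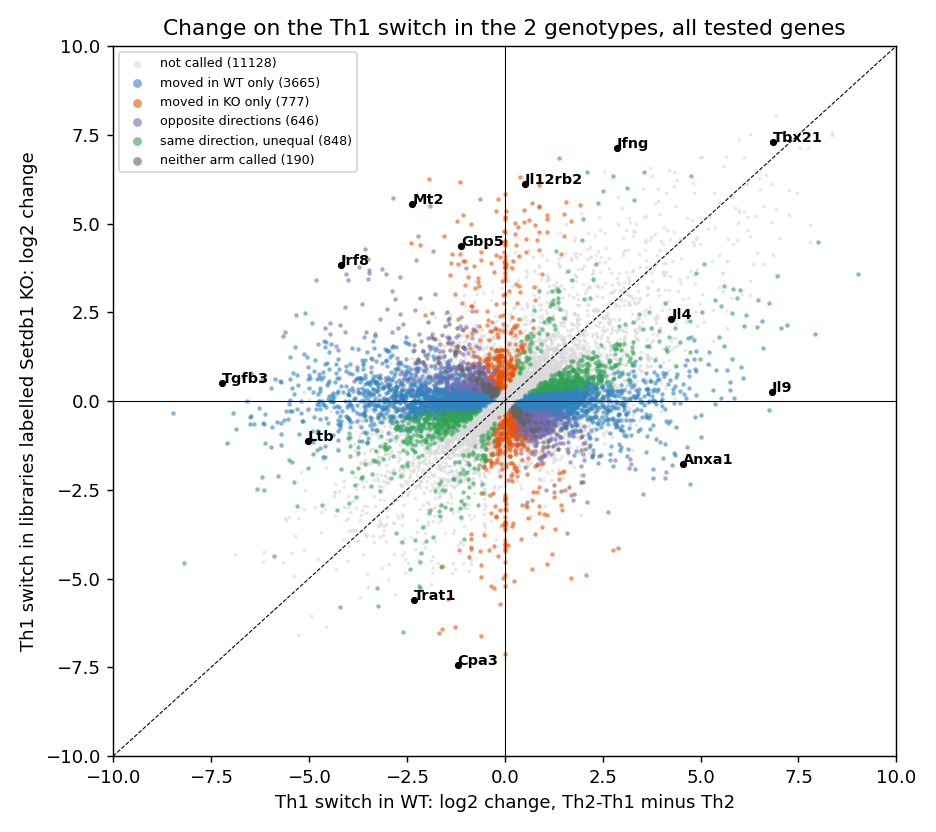
Each point is 1 of 17254 tested genes; the horizontal axis is the log2 change from Th2 to Th2-Th1 in WT, the vertical axis the same change in libraries labelled Setdb1 KO, and the dashed line marks equal change. Colours separate the genes called in the interaction by which arm moved: 3665 in WT only, 777 in libraries labelled Setdb1 KO only, 646 in opposite directions, 848 in the same direction and 190 with neither arm called.

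The genotypes differed in more genes before the switch than after it. The difference was called in Th2 cells for 9324 tested genes (54%) and in Th2-Th1 cells for 5810 (33.7%). Of the 6126 interaction genes, 2969 differed between genotypes in Th2 cells only and 1079 in Th2-Th1 cells only. In both conditions the genotypes differed with the same sign for 1017 genes and with opposite signs for 908. All 4 comparisons share libraries with the interaction, so these counts describe it and are no independent support. Scaling by TMM in place of the authors' size factors moved the median genotype difference in Th2 cells from 0.13 to 0.28 and the median interaction from -0.05 to -0.14. The median absolute genotype difference was 0.83 in Th2 and 0.57 in Th2-Th1 cells.

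Genes of IL-12, IL-18 and interferon gamma signalling were among those that split by genotype. Of 20 tested members the interaction passed for 15, with 10 higher and 5 lower and a median of 0.60, beside a median of -0.05 over all genes. Of all tested genes 35.5% were called (17.3% higher and 18.2% lower), beside 75.0% of these members. Leaving out 1 library at a time gave 7 to 10 higher and 2 to 5 lower members. Il12rb2, the beta 2 subunit of the IL-12 receptor, was 341, 249 and 404 in Th2 WT and 415 and 518 in Th2-Th1 WT. In libraries labelled Setdb1 KO it went from 81.5, 90.9 and 106 in Th2 to 5560, 6427 and 7488 in Th2-Th1 cells. Only the latter arm moved: it rose 70.0-fold, while the change in WT, 0.51 ± 0.48, did not pass (limma, adjusted p = 0.407). This gave Il12rb2 an interaction of 5.60 ± 0.64 (limma, adjusted p = 1.51e-06). Before the switch the receptor gene was lower, not higher, in libraries labelled Setdb1 KO, by 3.57-fold. Il12rb1, the partner subunit, also rose in libraries labelled Setdb1 KO alone, with an interaction of 1.01 ± 0.34, as did the kinase gene Jak2 at 0.79 ± 0.16. Stat4 fell in both arms, from 3604, 2933 and 3684 to 1369, 1256 and 1143 in libraries labelled Setdb1 KO and from 1143, 1072 and 993 to 757 and 494 in WT. Its interaction was -0.63 ± 0.20 (limma, adjusted p = 0.02), and all libraries labelled Setdb1 KO stayed above all WT libraries of the same condition. That call was lost without Th2 Setdb1 KO replicate 3 (-0.57) or Th2-Th1 WT replicate 1 (-0.32). The call of Il12rb1 was lost when either Th2-Th1 WT library, Th2 Setdb1 KO replicate 3 or Th2-Th1 Setdb1 KO replicate 1 was left out, at 0.86 to 1.06.

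Downstream of the receptors the split was widest at Irf8, which encodes an interferon-regulated transcription factor. Irf8 fell 18.2-fold in WT, from 1901, 1638 and 1784 to 83.9 and 112. It rose 14.0-fold in libraries labelled Setdb1 KO, from 166, 124 and 102 to 1824, 1742 and 1910. Within each condition the genotypes did not overlap, and their order reversed; the interaction was 8.001 ± 0.35 (limma, adjusted p = 9.15e-12). Irf1, another interferon-regulated factor, was 1518, 1481 and 1459 in Th2 WT and 1628 and 1783 in Th2-Th1 WT, against 1586, 1727 and 2129 and then 8151, 7186 and 6875 in libraries labelled Setdb1 KO. Irf1 thus rose in the latter arm alone, with an interaction of 1.84 ± 0.16. Ifngr1, a chain of the interferon gamma receptor, fell in WT only (1.16 ± 0.20).

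**Figure D2:**
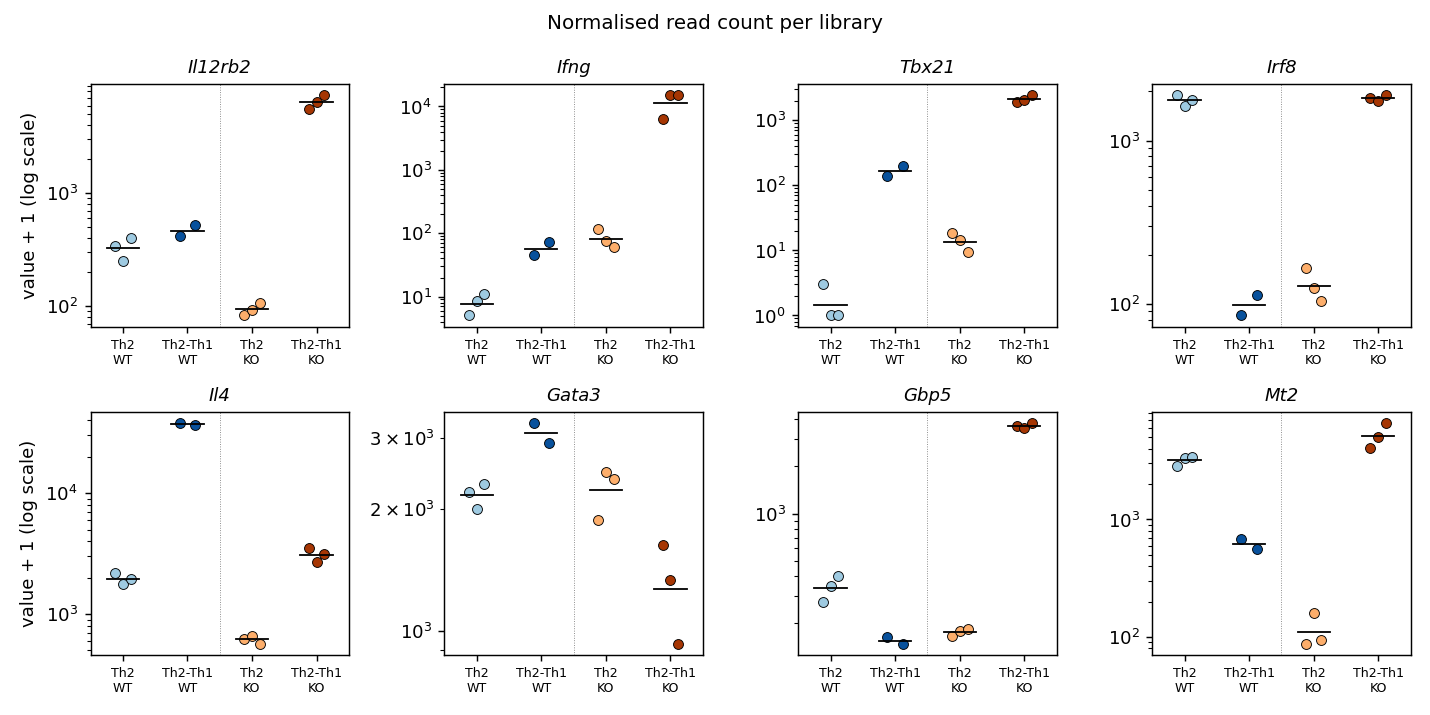
Value + 1 of 8 genes in each of the 11 libraries, on a log scale; points are libraries, horizontal lines are group means of the log values, and the dotted line separates WT from libraries labelled Setdb1 KO. Irf8, Gbp5 and Mt2 fall in WT and rise in libraries labelled Setdb1 KO, Il12rb2 rises in the latter alone, and Tbx21 rises in both from different starting levels.

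The promoter of Irf8 is shown because it holds the GAS element, the site bound by STAT proteins in interferon-responsive genes, and because Irf8 had the largest interaction of the signalling genes listed. The run covers the 250 bases before the RefSeq start of Irf8 (GRCm38.p6, chr8:120736108-120736357, plus strand), with capitals at matches to TTCNNNGAA, which reads alike on both strands.
Irf8: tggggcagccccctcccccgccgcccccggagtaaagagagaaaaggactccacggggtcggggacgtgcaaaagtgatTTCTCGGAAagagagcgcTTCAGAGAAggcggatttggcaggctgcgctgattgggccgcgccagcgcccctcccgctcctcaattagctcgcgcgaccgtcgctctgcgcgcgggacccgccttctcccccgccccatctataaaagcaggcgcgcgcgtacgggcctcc
It holds 2 matches, and the promoter overlapped a Th2 peak of H3K27ac, a mark of active promoters and enhancers, and of open chromatin in both genotypes. Among 11598 tested genes with a RefSeq promoter of 300 bases (250 before to 50 after the start), 7.16% hold such a match, and among the 234 that rose in libraries labelled Setdb1 KO and fell in WT 6.84% do.

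Of 26 tested Th1 genes 8 were higher and 3 lower, a share of 42.3% that lies near the 35.5% of all tested genes. The switch itself raised 14 in the WT arm and 16 in the other, where 25.8% and 13% of all tested genes rose. Ifng, the signature cytokine, was 4.03, 7.42 and 9.98 in Th2 WT and 43.7 and 70.9 in Th2-Th1 WT. In libraries labelled Setdb1 KO it was 114, 74.3 and 59.5 in Th2 and 6252, 14972 and 15356 in Th2-Th1 cells. It rose 8.02-fold in WT and 147.6-fold in libraries labelled Setdb1 KO, and the interaction was 4.26 ± 1.03 (limma, adjusted p = 0.00301). Tbx21 behaved otherwise. It was 2.02, 0 and 0 in Th2 WT and 138 and 199 in Th2-Th1 WT, against 17.9, 13.4 and 8.49 and then 1942, 2086 and 2485 in libraries labelled Setdb1 KO. Both arms rose by similar log2 steps, 6.85 ± 0.82 and 7.30 ± 0.73, and the interaction of 0.45 ± 1.10 did not pass (limma, adjusted p = 0.809). It passed with a pseudocount of 5 (1.99), and its sign changed to negative with DESeq2, edgeR, a pseudocount of 0.5 or without Th2 WT replicate 1. Th2 WT was at or near 0, so its log2 step is poorly fixed. So the end level of Tbx21 differed 12.9-fold while its step on the switch was not shown to differ.

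Other Th1 regulators did split. Hlx, a homeobox partner of T-bet, fell in WT (175 to 22.8) and rose in libraries labelled Setdb1 KO (22.7 to 205), with an interaction of 5.98 ± 0.94. Runx3, which helps T-bet at the Ifng locus, followed the same opposite course (2.44 ± 0.32), as did Lta, which encodes lymphotoxin alpha (1.84 ± 0.37). Bhlhe40, a transcription factor that sustains cytokine production, rose in libraries labelled Setdb1 KO alone, from 1466 to 18232, with an interaction of 3.92 ± 0.70. Ltb, which encodes lymphotoxin beta, fell in both arms and further in WT (3.91 ± 0.27). Il18rap, a chain of the IL-18 receptor, rose in WT alone (-2.86 ± 0.49), from 56.1 to 513, to about the level that libraries labelled Setdb1 KO held throughout (461 and 595). Eomes, a T-box relative of Tbx21, fell in libraries labelled Setdb1 KO only (-3.60 ± 1.00), a call lost without Th2-Th1 WT replicate 1 (-3.07). The chemokine genes Ccl3 and Ccl4 rose in both arms with interactions of 0.40 ± 0.97 and 1.11 ± 0.61 that did not pass. That of Ccl4 passed under 6 of 22 alternatives, edgeR (1.16) and DESeq2 among them. Over the 11 libraries the genes most like Ifng were Atmin, Ly6g, Osm, 4930539E08Rik and Csnk1g1, with Pearson r from 0.975 to 0.981 on log values, given as a description.

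Th2 cytokine genes rose on the switch in both genotypes, and the rise was smaller in libraries labelled Setdb1 KO for Il4. Th1 medium, added culture time and any renewed stimulation cannot be told apart in these rises. Il4 went from 2176, 1759 and 1936 to 38062 and 36607 in WT and from 621, 663 and 567 to 3516, 2669 and 3117 in libraries labelled Setdb1 KO. These are rises of 19.1-fold and 5.03-fold with no overlap between any of the 4 groups, and the interaction was -1.94 ± 0.40 (limma, adjusted p = 0.000875). Il5 and Il13 rose by 5.97 ± 0.56 and 6.19 ± 0.42 in WT and by 5.01 ± 0.50 and 4.82 ± 0.37 in libraries labelled Setdb1 KO. Their interactions of -0.96 ± 0.75 and -1.37 ± 0.56 did not pass (limma, adjusted p = 0.351 and 0.0645). That of Il5 passed under 1 of 22 alternatives, a replicate block within genotype. That of Il13 passed under 7 of 22, edgeR (-1.49) and the 11 libraries fitted alone among them. Gata3, the master regulator, was 2200, 2004 and 2303 in Th2 WT and 1883, 2467 and 2371 in Th2 libraries labelled Setdb1 KO, which overlapped. It then measured 3266 and 2908 in Th2-Th1 WT and 1634, 1338 and 931 in Th2-Th1 libraries labelled Setdb1 KO. Gata3 therefore fell in libraries labelled Setdb1 KO alone, with an interaction of -1.32 ± 0.30 (limma, adjusted p = 0.00206). Il9, another cytokine gene, moved in WT alone, from 2.02, 0 and 4.99 to 207 and 418, and stayed between 2.38 and 23.5 in libraries labelled Setdb1 KO (-6.56 ± 1.52). Of 24 tested Th2 genes 5 were higher and 5 lower (41.7% called, near the 35.5% of all tested genes). Among the higher ones, Stat5b and Stat6, which carry IL-2 and IL-4 signals, fell in WT only (2.23 ± 0.18 and 1.06 ± 0.15), and Stat5a rose in libraries labelled Setdb1 KO only (1.48 ± 0.18).

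Most interferon-stimulated genes rose in both arms, and those called in the interaction went both ways. The switch raised 27 of 37 tested members in WT, where 5 fell, and 30 in libraries labelled Setdb1 KO, where none did. Over all tested genes 25.8% rose in WT and 13% in the other arm. The interaction was higher for 12, lower for 10 and not called for 15, with a median of 0.10. Thus 59.5% were called, beside 35.5% of all tested genes (17.3% higher and 18.2% lower). The higher set held guanylate-binding proteins and immunity-related GTPases, which act against intracellular microbes, and genes of antigen processing. Gbp5 was 274, 343 and 399 in Th2 WT and 162 and 148 in Th2-Th1 WT, against 166, 178 and 182 and then 3625, 3492 and 3769 in libraries labelled Setdb1 KO. It fell 2.19-fold in one arm and rose 20.7-fold in the other, with an interaction of 5.47 ± 0.22 (limma, adjusted p = 5.02e-12). Gbp2 and Gbp6 rose in libraries labelled Setdb1 KO only (4.11 ± 0.36 and 2.97 ± 0.43). Gbp3 and Irgm1 rose in both arms and more in libraries labelled Setdb1 KO (1.62 ± 0.33 and 0.87 ± 0.26), and Irgm1 lost its call without Th2-Th1 WT replicate 2 (0.73). Tap1, a peptide transporter, and Psmb9, a subunit of the immunoproteasome, fell in WT and rose in libraries labelled Setdb1 KO (2.28 ± 0.16 and 1.68 ± 0.21). Guanylate-binding protein genes are close copies, and how reads shared between them were counted is not stated in the labels.

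The lower set held antiviral genes that were already higher in Th2 libraries labelled Setdb1 KO. Rtp4, an interferon-induced gene, was 0 in all 3 Th2 WT libraries and 44.9 and 20.9 in Th2-Th1 WT. Libraries labelled Setdb1 KO had 94.96, 149.5 and 152 in Th2 and 375, 288 and 235 in Th2-Th1 cells. It thus rose at least 5.17-fold in WT, against a floor of 3 reads per library that covers counting error only, and 2.26-fold in libraries labelled Setdb1 KO (interaction -3.81 ± 0.57; limma, adjusted p = 3.45e-05). Ifit2, whose product binds translation factors, rose from 127, 122 and 89.8 to 481 and 386 in WT, and was 807, 927 and 1281 and then 799, 668 and 737 in libraries labelled Setdb1 KO (-2.36 ± 0.28). Ifit1 likewise moved in WT only (-1.74 ± 0.63). Oas1a, an RNA sensor, Mx1, an antiviral GTPase, Irf7, a regulator of type I interferon, Cmpk2, Zbp1, Usp18 and Irf9 rose in both arms and more in WT, with interactions between -2.88 and -0.62. After the switch the mean of each of the 10 was still higher in libraries labelled Setdb1 KO than in WT, with Irf9 nearest, at 2620 and 2048. Oas1a, like Rtp4, was 0 in all Th2 WT libraries, so the size of both interactions depends on the pseudocount. That of Rtp4 ranged from -7.12 to -1.69 over the alternatives and kept its call, and that of Oas1a from -6.46 to -0.82, with its call lost under edgeR and a pseudocount of 5. Of the 22 alternatives, 7 ended the call of Mx1, 8 that of Ifit1, 9 that of Irf9 and 10 that of Usp18. The lower members numbered 4 without Th2-Th1 WT replicate 1, where Oas1a (-2.38) and Irf7 (-1.37) also lost their calls, and 6 without replicate 2 or 3 of either Setdb1 KO group. The higher members numbered 7 without Th2-Th1 WT replicate 2.

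**Figure D3:**
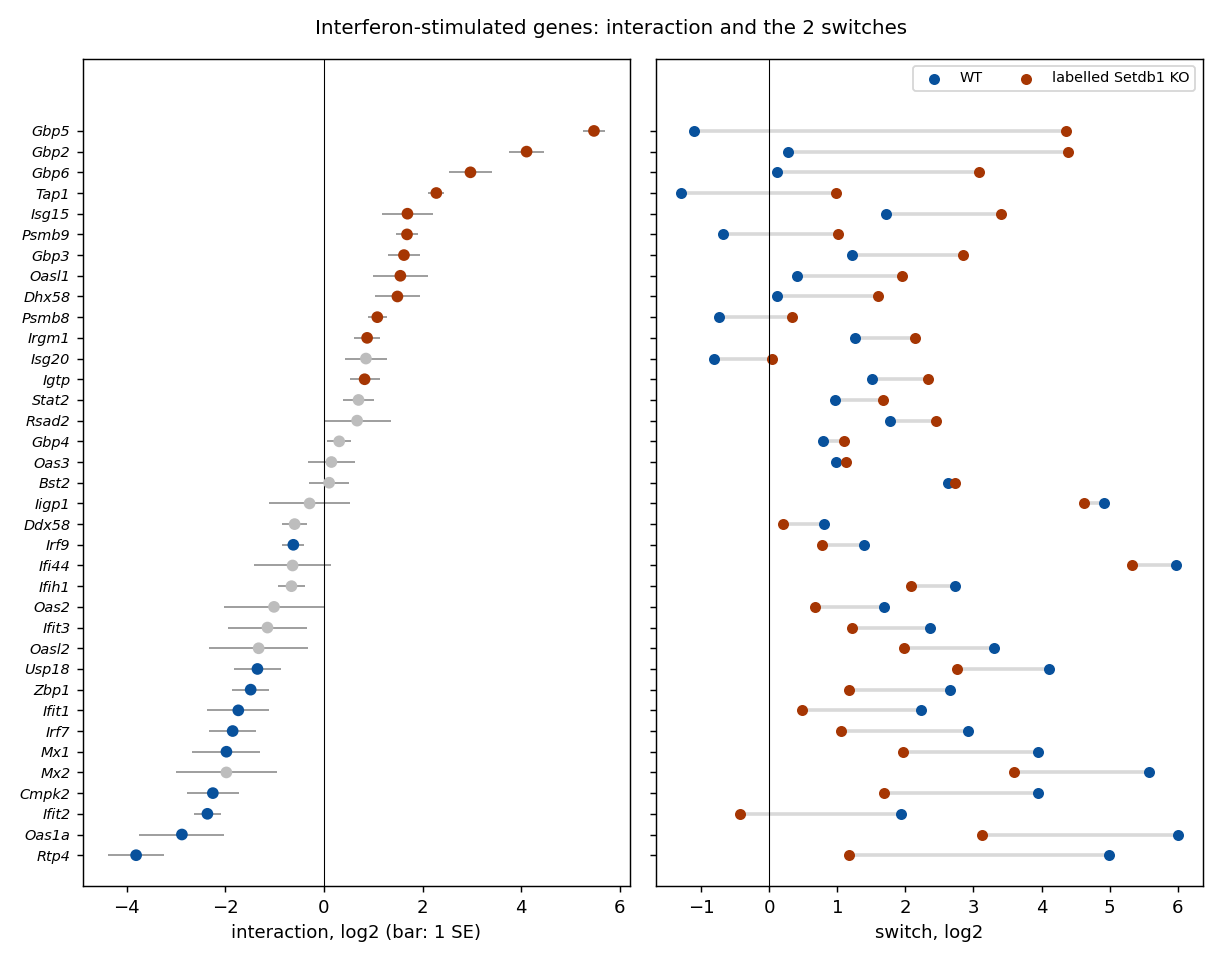
Left, interaction of 36 of the 37 interferon-stimulated genes in log2 with bars of 1 standard error, coloured where limma's adjusted p is under 0.05; right, the 2 switches that make it up. The guanylate-binding proteins Gbp5, Gbp2 and Gbp6 lead the 12 higher genes, and Rtp4, Oas1a and Ifit2 have the most negative values, of which Rtp4 and Oas1a are at 0 in Th2 WT and depend on the pseudocount.

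Promoters of 1 gene from each set are shown to let the elements be compared. Gbp5 (chr3:142496684-142496933, plus strand) has capitals at the GAS element TTCNNNGAA, and Ifit1 (chr19:34640639-34640888, plus strand) at the interferon-stimulated response element, searched as a pair of GAAA runs with 2 bases between them on either strand. Both runs are the 250 bases before the RefSeq start in GRCm38.p6.
Gbp5: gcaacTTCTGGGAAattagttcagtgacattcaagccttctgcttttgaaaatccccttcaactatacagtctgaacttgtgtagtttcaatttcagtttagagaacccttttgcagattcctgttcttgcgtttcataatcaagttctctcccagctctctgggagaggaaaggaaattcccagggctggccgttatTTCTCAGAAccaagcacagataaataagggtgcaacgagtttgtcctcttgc
Ifit1: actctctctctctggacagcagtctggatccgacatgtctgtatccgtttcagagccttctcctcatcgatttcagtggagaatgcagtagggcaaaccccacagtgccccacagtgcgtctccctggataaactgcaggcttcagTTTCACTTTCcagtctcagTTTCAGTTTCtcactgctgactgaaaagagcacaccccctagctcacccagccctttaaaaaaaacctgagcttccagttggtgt
Each run holds 2 matches to the element in capitals, and that of Gbp5 also holds 1 to the response element, left in lower case. A match to the response element was present in 15 of 26 list promoters (57.7%) and in 3.21% of promoters of all tested genes, and TTCNNNGAA in 26.9% and 7.16%. Of the higher genes with a promoter 6 of 10 hold the response element and 3 of 10 TTCNNNGAA, and of the lower genes 2 of 6 hold each.

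Natural killer (NK) receptor genes and interferon-inducible chemokines came on in Th2-Th1 libraries labelled Setdb1 KO at low levels. Of 14 listed NK receptor genes 10 were tested and 6 had a higher interaction, with none lower. That is 60.0% called, beside 35.5% of all tested genes. Among the 11 libraries, a member near 0 elsewhere met the filter (10 in 2 or more libraries) only through the group where it was high. For such members the filter favoured a higher interaction, so the count is no independent support. Klrk1, the gene of the activating receptor NKG2D, was 0 in all Th2 WT libraries and 5.91 and 0 in Th2-Th1 WT. It was 1.59, 1.34 and 2 in Th2 and 373, 340.1 and 211 in Th2-Th1 libraries labelled Setdb1 KO (5.44 ± 1.69; limma, adjusted p = 0.0165). Klre1, Klri2 and Klrd1 rose in the same arm to means between 27.8 and 42.5. The 6 did not all share this course: Klra7 passed because it fell in WT, from 97.1 to 0.581. Under the alternatives with all 11 libraries kept, between 1 (edgeR) and 7 members were called, and the cause was not tested. The call of Klrk1 was lost without Th2-Th1 WT replicate 2 (4.05), and also with DESeq2, edgeR or a pseudocount of 0.5. Klra7 did not pass with DESeq2 or edgeR, and Klri2 and Klrd1 did not pass with edgeR. Cxcl11 and Cxcl9, chemokines that interferon gamma induces, were called in libraries labelled Setdb1 KO only. Cxcl9 was 49.9, 55.6 and 73.4 there after the switch and no more than 3.54 in any other library (4.16 ± 1.29). Neither chemokine passed with edgeR or DESeq2, and Cxcl9 was also lost with a pseudocount of 0.5 and without Th2-Th1 WT replicate 2 (3.07). Receptor genes of this cluster are close copies and were counted by symbol as the authors gave them.

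Glycolysis and hypoxia-response genes gave the most uniform interaction of the lists examined: 28 of 30 were higher and none lower, with a median of 2.26. That is 93.3% called, beside 35.5% of all tested genes. Hypoxia genes are switched on by the factor HIF-1, which also drives the enzymes that turn glucose into lactate. In WT the switch lowered 25 of the 30 and raised none, with the remaining 5 not called. The other arm raised 16 and lowered 4. Over all tested genes 24% fell in WT and 13% rose in the other arm. Pgk1, which encodes phosphoglycerate kinase, was 10412, 8641 and 10168 in Th2 WT and 1460 and 1564 in Th2-Th1 WT. It was 1575, 1623 and 1395 in Th2 and 2387, 1932 and 2036 in Th2-Th1 libraries labelled Setdb1 KO. Th2 WT was the group that stood apart, and the interaction was 3.15 ± 0.21 (limma, adjusted p = 2.93e-09). Eno1, the enolase gene, went from 8003, 6849 and 7878 to 1000 and 911 in WT and from 2394, 2930 and 2734 to 3943, 3465 and 3635 in libraries labelled Setdb1 KO (3.44 ± 0.16). Adm, a hypoxia-induced peptide hormone, fell 49.5-fold in WT, from 1666, 1518 and 2023 to 27.2 and 43.0, and lay between 3.00 and 26.4 in libraries labelled Setdb1 KO (7.57 ± 0.96). Slc2a3 and Slc2a1, the glucose transporters, gave 3.34 ± 0.30 and 2.89 ± 0.22, and Vegfa, a hypoxia-induced growth factor, gave 3.21 ± 0.47.

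The regulator gene itself took another course. Hif1a was 69647, 72360 and 79497 in Th2 WT and 68831 and 64123 in Th2-Th1 WT. Under the Setdb1 KO label it rose from 24147, 30473 and 26475 to 58308, 61045 and 55699. It therefore moved in the latter arm only (1.27 ± 0.15), and its levels after the switch differed by -0.19 between genotypes, which did not pass (limma, adjusted p = 0.208). Summed over the 30 genes, the values were 695260 to 769820 in Th2 WT, 260030 to 261370 in Th2-Th1 WT, 172410 to 188160 in Th2 and 259920 to 263760 in Th2-Th1 libraries labelled Setdb1 KO. The sums of the genotypes met after the switch and lay far apart before it. Hexokinase 2 (Hk2) and Eno2 did not pass, at 1.55 ± 0.78 and 0.97 ± 1.04, though Hk2 passed under 6 of 22 alternatives, edgeR and DESeq2 among them. Between 27 and 29 members were called under every alternative, reads thinned to equal depth included (29). Several of these enzymes, Gapdh among them, have processed pseudogenes that can share reads. Hspa1a, an inducible HSP70 gene, was likewise high in Th2 WT, at 5990, 5569 and 4939, and no more than 299.7 in the other libraries. Heat shock genes as a list did not follow, with 4 of 14 called (28.6%) and 4 up and 4 down on the switch in WT. The part of culture stress in the result was not tested.

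**Figure D4:**
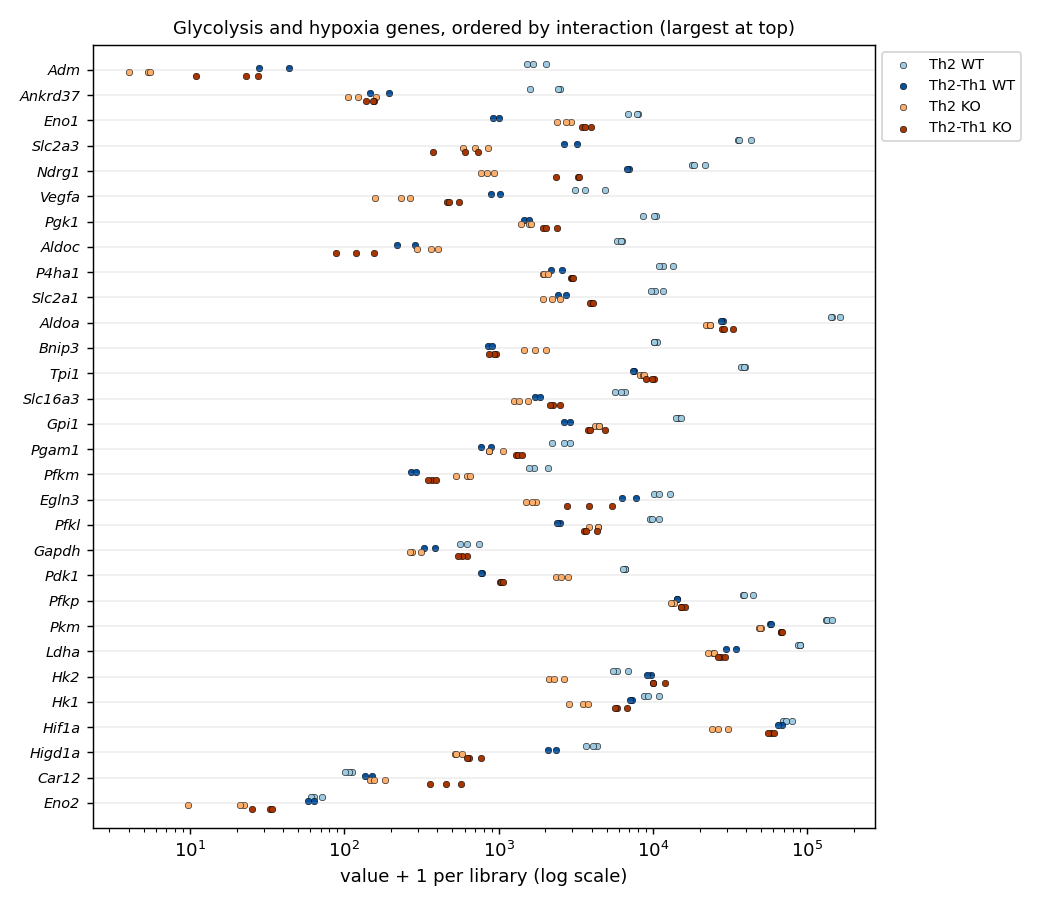
Value + 1 of 30 glycolysis and hypoxia genes in each library, on a log scale, with genes ordered by interaction and the 4 groups in colours offset within a row. In most rows the 3 Th2 WT points lie to the right of the other 8 libraries.

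Promoters of Pgk1 (chrX:106186850-106187099, plus strand) and Ankrd37 (chr8:45999851-46000100, minus strand), a HIF-1 target that fell in WT only (3.88 ± 0.32), are printed since this group moved together. Capitals mark ACGTG on either strand, the core of the hypoxia response element.
Pgk1: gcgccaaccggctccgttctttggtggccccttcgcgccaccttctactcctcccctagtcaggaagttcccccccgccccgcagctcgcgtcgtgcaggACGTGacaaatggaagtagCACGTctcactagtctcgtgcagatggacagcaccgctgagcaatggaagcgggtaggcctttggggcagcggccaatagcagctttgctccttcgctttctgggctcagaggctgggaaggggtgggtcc
Ankrd37: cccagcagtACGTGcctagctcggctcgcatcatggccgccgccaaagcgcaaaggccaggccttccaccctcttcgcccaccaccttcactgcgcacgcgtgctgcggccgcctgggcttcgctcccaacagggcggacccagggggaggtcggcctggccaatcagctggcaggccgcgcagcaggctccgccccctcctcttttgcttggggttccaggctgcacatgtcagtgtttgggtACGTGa
Each run, again the 250 bases before the start in GRCm38.p6, holds 2 matches. ACGTG is short and was found in 25.1% of promoters of all tested genes and in 15 of 28 promoters of the list (53.6%). It was present in 31.7% of promoters of genes that fell in WT only and in 26.9% of those that rose in WT only.

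Cell cycle genes showed the reverse pattern, with 19 of 32 lower, 1 higher and a median of -1.24. That is 62.5% called, beside 35.5% of all tested genes. The switch raised 17 in the WT arm, whereas in the other arm it raised 4 and lowered 13. Over all tested genes 25.8% rose in WT and 13.6% fell in the other arm. Mki67, a marker of dividing cells, was 10951, 10712 and 13504 in Th2 WT and 26941 and 24212 in Th2-Th1 WT. It was 43282, 39676 and 47992 in Th2 and 19739, 28203 and 32318 in Th2-Th1 libraries labelled Setdb1 KO. The 2 genotypes overlapped after the switch and not before it (-1.86 ± 0.42; limma, adjusted p = 0.00187). Mcm5, a subunit of the replicative helicase, moved in opposite directions, from 4918, 4897 and 4503 to 8056 and 8676 in WT and from 8393, 7908 and 9025 to 4982, 5242 and 7022 in libraries labelled Setdb1 KO (-1.38 ± 0.22). Mcm2, Mcm3 and Mcm4 of the same helicase, the mitotic genes Cenpf and Bub1b, and Mcm5 were the 6 list members that rose in WT and fell in libraries labelled Setdb1 KO. Rrm2, Rrm1 and Tyms, which supply deoxynucleotides, rose in WT only (-2.23 ± 0.37, -1.90 ± 0.22 and -1.95 ± 0.28). The mitotic cyclins Ccnb1 and Ccnb2 did not pass, at -0.77 ± 0.51 and -0.18 ± 0.57, though Ccnb1 passed under 4 of 22 alternatives, DESeq2 among them. The 1 higher gene was Ccnd3, which encodes cyclin D3 (1.37 ± 0.22). In bulk RNA, fewer cells of a kind and less RNA per cell cannot be told apart.

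The promoter of Mcm5 (chr8:75109259-75109508, plus strand) holds 1 match to the E2F sites TTTGGCGC or TTTCCCGC on either strand, in capitals in the 250 bases before its start (GRCm38.p6).
Mcm5: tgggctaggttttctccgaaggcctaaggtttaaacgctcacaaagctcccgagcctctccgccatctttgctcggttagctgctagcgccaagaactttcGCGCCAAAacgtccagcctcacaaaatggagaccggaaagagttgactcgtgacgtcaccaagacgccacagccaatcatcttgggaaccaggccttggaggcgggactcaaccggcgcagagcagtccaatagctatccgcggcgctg
Of 27 promoters of the cell cycle list 22.2% hold such a match, beside 2.94% of promoters of all tested genes. It was found in 6.50% of promoters of genes that fell in libraries labelled Setdb1 KO and rose in WT.

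Heterochromatin genes followed the cell cycle genes, with 13 of 25 lower, 3 higher and a median of -0.78 (64.0% called, beside 35.5% of all tested genes). Morc2a, a partner of the HUSH silencing complex, was 329, 412 and 442 in Th2 WT and 1455 and 1377 in Th2-Th1 WT, and 2041, 1993 and 2108 and then 1760, 1747 and 2024 in libraries labelled Setdb1 KO. WT thus rose towards a level that libraries labelled Setdb1 KO already had (-2.01 ± 0.18; limma, adjusted p = 1.05e-07). The DNA methyltransferase genes Dnmt1 and Dnmt3a and Cbx5, the gene of the H3K9me3 reader HP1 alpha, rose in WT and fell in libraries labelled Setdb1 KO (-1.44 ± 0.18, -1.57 ± 0.19 and -1.47 ± 0.16). Mphosph8 and Pphln1, HUSH subunits, rose in WT only. The 3 higher genes were the demethylase genes Kdm4b and Kdm4c and Trim28, the corepressor that recruits SETDB1 (2.04 ± 0.21, 1.12 ± 0.14 and 0.65 ± 0.15).

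Of 19 tested activation-induced cytokine genes the switch raised 13 in WT and 14 in the other arm, where 25.8% and 13% of all tested genes rose. No member had a higher interaction, and 5 were lower, beside 2 higher and 9 lower with edgeR. The share called, 26.3%, lies below the 35.5% of all tested genes, so the list did not stand out. Tnfsf8, the CD30 ligand gene, went from 1186, 1191 and 1212 to 18022 and 16213 in WT and from 1983, 1821 and 2095 to 3935, 4195 and 5119 in libraries labelled Setdb1 KO. It rose 14.3-fold and 2.25-fold (-2.68 ± 0.17; limma, adjusted p = 1.84e-09). Tnfsf11, which encodes RANK ligand, Csf1, the macrophage growth factor, and Cd40lg rose more in WT as well (-3.35 ± 0.35, -2.96 ± 0.75 and -1.45 ± 0.41), and the call of Cd40lg was lost without Th2-Th1 WT replicate 1 (-1.29). Of 14 AP-1 and BATF family genes 7 were higher and 2 lower (64.3% called, beside 35.5% of all tested genes). Batf3, whose product partners JUN proteins, went from 1621, 1583 and 1417 to 126 and 163 in WT and from 269, 330.4 and 219.8 to 564, 611 and 710.0 in libraries labelled Setdb1 KO. That is an opposite course, shared by Junb, Fosl2 and Maff (4.63 ± 0.46, 2.55 ± 0.50, 2.99 ± 0.35 and 3.49 ± 0.47).

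Among lymph node homing genes, Ccr7, the chemokine receptor for entry into lymph nodes, fell from 2460, 2585 and 2248 to 222 and 230.0 in WT and rose from 704, 908 and 897 to 1795, 1594 and 1468 in libraries labelled Setdb1 KO. Its interaction was 4.38 ± 0.18 (limma, adjusted p = 5.02e-12). Of 18 tested naive and quiescent genes 6 were higher and 3 lower, beside 17.3% and 18.2% of all tested genes. Tcf7, a factor of naive cells, was lower, since it fell further in libraries labelled Setdb1 KO (-1.36 ± 0.32, and not called at -0.93 with reads thinned to equal depth), and Foxp1 rose in WT and fell there (-2.03 ± 0.19). The list did not move as a whole.

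**Figure D5:**
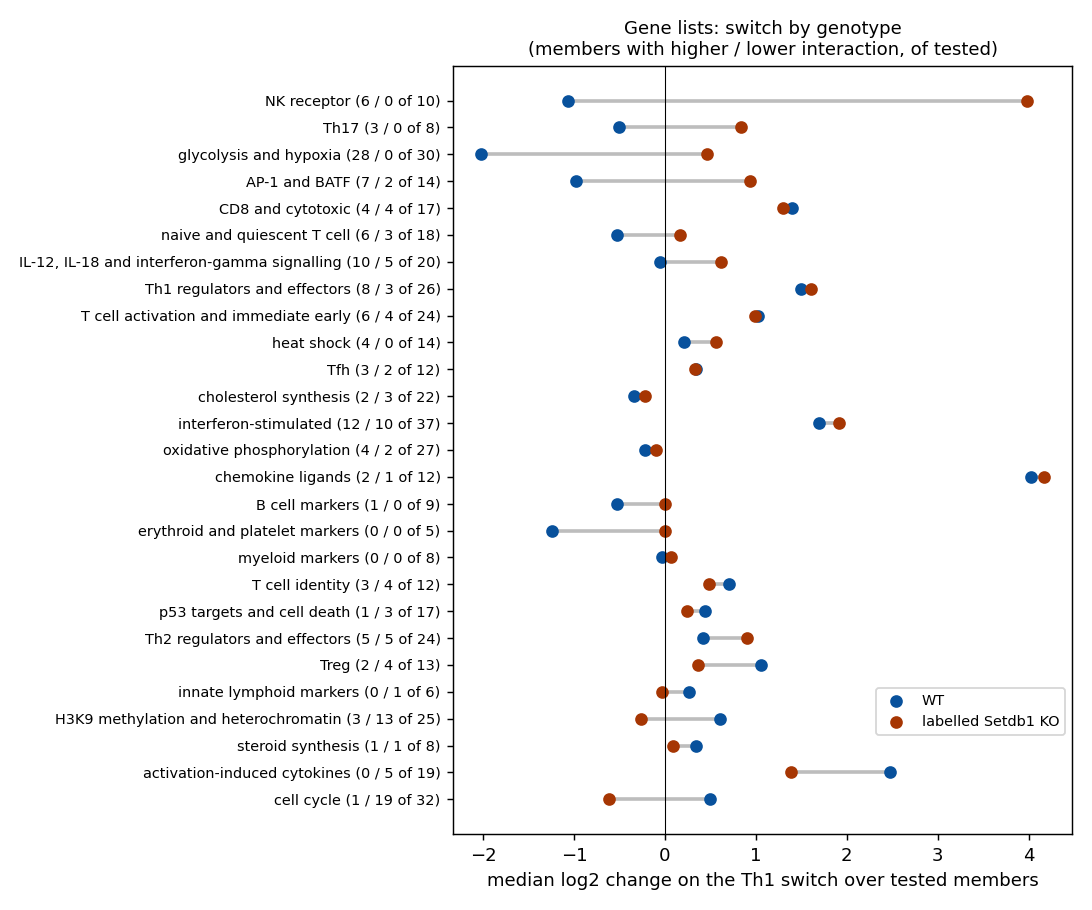
Median log2 change on the switch over the tested members of each gene list with at least 5 tested members, for WT and for libraries labelled Setdb1 KO, ordered by the median interaction; brackets give members with a higher and a lower interaction of those tested. Glycolysis and hypoxia genes (28 higher of 30) and cell cycle genes (19 lower of 32) stand near opposite ends, and Th1, activation and Tfh genes have medians that nearly coincide.

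By movement class, the genes with the largest interactions that passed the naming rule were as follows. In libraries labelled Setdb1 KO alone, Npr3, a receptor that clears natriuretic peptides, rose from 4.77, 6.72 and 0.5 to 278, 299 and 294, while WT held 407, 439.8 and 544 in Th2 and 195 and 219.6 in Th2-Th1 cells (7.32 ± 1.34; limma, adjusted p = 0.000256). The rise of Npr3 therefore ended near the WT level. Lrp1, a scavenger receptor, Mylk, a myosin kinase, and Procr, the protein C receptor, also rose in that arm only. Sult5a1, a sulfotransferase gene, was 565, 514 and 690.4 in Th2 libraries labelled Setdb1 KO, fell 179.3-fold there, and was 0 in every WT library (-7.11 ± 1.25). The interactions of Sult5a1 and Cpa3 did not pass with edgeR (-7.44 and -5.52). Cacna2d1, a calcium channel subunit, Cpa3, a mast cell protease, and Drc1, a ciliary protein, fell in that arm alone too. In WT alone Map2, Pydc3 and Nqo2 joined Il9 in rising. Tgfb3, which encodes a transforming growth factor, fell 121-fold in WT, from 1161, 956 and 1305 to 16.5 and 2.32, and lay between 5.96 and 26.4 in libraries labelled Setdb1 KO (7.71 ± 0.81). Smtnl2, Cxcr2 and Hey1, a Notch target, fell in WT with it.

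Among genes that moved in opposite directions, Mt2, a metallothionein that binds zinc and copper, was 2841, 3308 and 3428 in Th2 WT and 683 and 563 in Th2-Th1 WT. In libraries labelled Setdb1 KO it went from 86.6, 158 and 93.4 to 4055, 5069 and 6624. The highest and lowest groups were thus the 2 states of the same genotype label (7.91 ± 0.51; limma, adjusted p = 1.58e-09). Tbkbp1, an adaptor of the kinase TBK1, and Rab34 shared that course (8.57 ± 1.28 and 7.86 ± 1.14). The other way, Anxa1, an anti-inflammatory annexin, rose from 58.5, 42.7 and 59.9 to 1227 and 1326 in WT and fell from 2166, 2010 and 1670 to 720.0, 604 and 413 in libraries labelled Setdb1 KO (-6.34 ± 0.76). Ifi203, S100a4 and Gpr97 did likewise. Ifi203 and Pydc3 belong to a cluster of near-identical genes, and Mt2 has a close copy next to it, so reads may be shared. The promoter of Mt2 (chr8:94172368-94172617, plus strand, GRCm38.p6) is printed with capitals at the metal response elements TGCGCNC or TGCACNC on either strand.
Mt2: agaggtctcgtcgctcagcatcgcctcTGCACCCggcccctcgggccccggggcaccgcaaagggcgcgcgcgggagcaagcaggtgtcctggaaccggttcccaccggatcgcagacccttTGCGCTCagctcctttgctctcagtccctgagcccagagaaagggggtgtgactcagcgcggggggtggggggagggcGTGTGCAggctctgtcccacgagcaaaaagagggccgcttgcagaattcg
It holds 3 matches in the 250 bases before the start. Such a match is common, in 35.4% of promoters of all tested genes and 36.8% of those that rose in libraries labelled Setdb1 KO and fell in WT.

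Where both arms moved the same way, the larger change was seldom that of the libraries labelled Setdb1 KO. Trat1, an adaptor of the T cell receptor, was such a case. It fell 4.98-fold in WT, from 5851, 5220 and 5017 to 1166 and 989, and 48.2-fold in libraries labelled Setdb1 KO, from 10978, 10511 and 11817 to 275, 176 and 239 (-3.29 ± 0.22; limma, adjusted p = 2.18e-09). Ighm, the immunoglobulin mu chain, Capn3 and Fam115e fell further in that arm as well, and Tnfrsf19, Gpr15 and Upp1 rose further along with Ifng. Without Th2-Th1 WT replicate 2 the calls of Gpr15 (2.96) and Upp1 (3.28) were lost. Gpr15, at 0 in all Th2 WT libraries, also lost its call with DESeq2 (2.96), edgeR (0.98) and a pseudocount of 0.5 (3.02). In WT the larger rises were those of Stfa3, Cdkl2, Rtp4 and Slc37a2, and the larger falls those of Acvrl1, a receptor for bone morphogenetic proteins, Cyp2s1, Ltb and Gbe1, a glycogen branching enzyme. Stfa3, one of a family of close copies, did not pass with edgeR (-1.30) or DESeq2 (-0.77).

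Markers of other cells were checked in the same libraries. T cell identity genes summed to 125340 to 130940 in Th2 WT and to 96421 or more in each library of the other groups. B cell markers (11 in the table) summed to 20.9 to 119.7 per library, and Ms4a1 was at or near 0 in all groups. Of the myeloid markers Lyz2 and S100a9 were at or near 0, but Emr1, the gene of the macrophage antigen F4/80, was 1482, 1243 and 1602 in Th2 WT and 4659, 5334 and 5438 in Th2 libraries labelled Setdb1 KO, and 64.1 or less after the switch. Cpa3, named above, is a mast cell and basophil gene: it was 385, 289.7 and 405 in Th2 libraries labelled Setdb1 KO and 10.1 or less elsewhere. Of the 9 markers of those cells 4 were tested, and they went different ways: Kit, at 4.72 or less in the other groups, rose to 53.8, 46.6 and 62.6 in Th2-Th1 libraries labelled Setdb1 KO, and Cd200r3 rose 7.16-fold in WT from 8.07, 0 and 0. The globin gene Hba-a1 was 379 to 415 in Th2 libraries labelled Setdb1 KO and 27.9 or less elsewhere. The part of other cells in the falls seen on the switch in libraries labelled Setdb1 KO was not tested.

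Chromatin near the genes was compared between movement classes with the authors' Th2 peak lists, which are independent of the RNA. Shares are descriptions with no test, over the 16219 tested genes with a position in RefSeq (GRCm38.p6). A Th2 WT region of H3K9me3 lay within 50 kb of 56.8% of all tested genes. The share was 69.2% (252 of 364) for genes that rose in libraries labelled Setdb1 KO only, 70.9% (214 of 302) for genes that rose there and fell in WT, and 75.0% (54 of 72) for genes that rose further there. It was 66.2% for genes that fell there only, and 55.8% and 59.2% for genes that rose and fell in WT only. Gene length differed too: the median was 19328 bp for all tested genes, 19415 bp for those that rose in libraries labelled Setdb1 KO only, 28197 bp for those that fell there only and 31625.5 bp for those that rose further there. The 93 genes that fell further there, at 71.0%, had 62895 bp. Within 10 kb the first share was 42.3% beside 28.9% of all tested genes.

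In Th2 cells labelled Setdb1 KO an H3K9me3 region lay within 50 kb of 4.95% of tested genes and of 5.22% of those that rose there only. For Ifng the nearest Th2 WT region was 11557 bp from the gene (chr10:118457451-118458550), and for Tbx21 it was 7707 bp away (chr11:97087851-97090300). For Il12rb2 it was 153336 bp away. Such a region also overlapped Il4 (chr11:53610851-53613750), Mx1 and Slc2a3, so nearness was not particular to Th1 genes. H3K27ac peaks found in cells labelled Setdb1 KO only lay within 10 kb of 33.3% of tested genes, of 37.1% of those that rose in that genotype only, and of 71.0% of the long genes that fell further there. Peaks found in WT only went the same way, at 22.4%, 31.3% and 47.3%. No H3K27ac peak of either genotype lay within 10 kb of Ifng. The lists come from Th2 cells, before the switch, and whether the authors called them on single or pooled samples is not stated in the labels.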

How the data were processed

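RNA of splenic CD4 T cells was measured as a gene table of 39179 genes and 18 libraries, deposited in 2 identical copies, of which the first was used. Its values are a normalised signal: the authors divided read counts by size factors, as the file's values show. Whole reads were recovered for 100% of values within 0.01 of a read. The submitters' processing notes name TopHat2 2.0.5, DESeq, BWA 0.7.10, MACS2 2.1.0, cutadapt 1.3 and the build mm10. Peak lists carry a score per peak as deposited by the authors. It was used only to repeat the chromatin shares with peaks at or above the median score. The labels do not state the counting strand.

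The test covered 17254 genes, those reaching 10 in 2 or more of the 18 libraries. It ran on log2(value + 1) with limma 3.58.1 (trend) in R 4.3.3, over all 18 libraries with 6 group means. It had 12 residual degrees of freedom and Benjamini-Hochberg adjustment at 0.05. On the recovered reads edgeR 4.0.16 called 6134 genes and DESeq2 1.42.0 called 6552. Tested on simulated data, this interaction recovered 51 of 100 genes changed by a log2 of 1 and 99 of 100 changed by 2, with 7 other calls among 17254 genes. An arm was called moved at the same threshold. A Th2 WT peak counted as near a gene within 50 kb for H3K9me3 and within 10 kb for other marks.

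Genes named are, per movement class, the 4 with the largest interaction among those called, with a mean of at least 50 and arms that do not overlap, per list up to 4 called members and its key regulators, and the 5 most like Ifng. Others were chosen after their values were seen. The members and lists were chosen with earlier results of these data known. Of 511 list members 509 were matched. Alternatives covered scaling, filters, pseudocount, tool, thinned depth, replicate block and leaving out each library. Some listed genes are counted in their lists but not reported here by name.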

Additional observations from a re-analysis of the deposited data

Results flagged for a closer look

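These results stood out because the same switch gave effects that differed between the genotypes by the interaction test itself (limma, Benjamini-Hochberg adjusted). In total 6126 genes differed in this way. Both arms passed with opposite signs for 304 genes that rose and 342 that fell in libraries labelled Setdb1 KO. Of the named genes in the first set, Tbkbp1 gave 8.57, Irf8 8.001, Mt2 7.91 and Rab34 7.86 on the log2 scale. In the second set Anxa1 gave -6.34, Ifi203 -6.10, S100a4 -4.94 and Gpr97 -4.83. These 8 kept their direction and their call under each of the 22 alternatives run.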

How the results depend on the processing

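The count of interaction genes ranged from 4974 to 5905 when 1 library was left out and from 5413 to 7369 under the other settings, and no gene called under both the reported and an alternative fit changed sign. With the 11 libraries fitted alone, the classes moving in opposite directions held 490 genes up and 519 down in libraries labelled Setdb1 KO, and 684 rose in both arms. Counting an arm as moved at an absolute log2 change of 1 gave 234 genes up and 254 down in libraries labelled Setdb1 KO only, 105 opposite with a fall there, 159 up and 154 down in both arms, and 2040 with neither. Leaving out 1 library gave 277 to 409 genes up in both arms, the lowest without Th2-Th1 Setdb1 KO replicate 2. A stricter definition of movement changes these counts by construction, and leaving out a library leaves less to test with. The 11 libraries fitted alone had 7 residual degrees of freedom in place of 12 and 15392 genes tested, yet more calls. The cause of that rise was not tested. Correlations of deviations from group means ran from 0.015 to 0.155 between same-numbered libraries of a genotype. Between differently numbered ones they ran from -0.135 to 0.10. With 2 or 3 libraries per group, deviations from the mean depend on each other, so these values cannot settle whether replicate numbers pair the samples. A replicate block over all libraries gave 6112 calls. A replicate block within genotype, fitted on those 11 libraries alone, gave 7348 calls beside 7369 there without the block, with 480 and 537 genes opposite and 743 up in both arms. The interaction changed sign for Tbx21 (DESeq2 -0.47, edgeR -0.40, pseudocount 0.5 -0.25, without Th2 WT replicate 1 -0.083, and 0.71 at most without another single library), for Ccl3 without Th2-Th1 WT replicate 1 (-0.083, and 0.88 without replicate 2), for Ly6g with edgeR (-0.18) and for Ms4a1, at or near 0 reads, without Th2 Setdb1 KO replicate 1 or 3 (-0.072) or Th2-Th1 Setdb1 KO replicate 2 (-0.18), against 0.20 at most. Calls were fewest without Th2-Th1 WT replicate 1 (5102) or 2 (4974), the group of 2 libraries. Depth limits genes at 0 in a group, whose folds are bounded only by the floor of 3 reads per library. Other distances, or peaks at or above the median score, put 506 of 624 chromatin shares outside the 95% binomial interval of the main share. Those shares therefore hold for the stated distances and peak lists only.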

Other observations

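Further heat shock genes and the Th17 genes were examined. Of 14 heat shock genes 4 had a higher interaction and none lower, a share of 28.6% that is below the 35.5% of all tested genes called. Dnajb1, a co-chaperone gene, was 4758, 4936 and 5164 in Th2 WT and 997 and 959.6 in Th2-Th1 WT, against 1354, 1303 and 1379 and then 1287, 1141 and 1192 in libraries labelled Setdb1 KO (2.18 ± 0.25; limma, adjusted p = 1.27e-06). Hspa1b, an inducible HSP70 gene with a near-identical copy in Hspa1a, fell in WT and rose in libraries labelled Setdb1 KO (6.38 ± 0.86), and Hspb1 fell in WT only (6.29 ± 1.14). Th2 WT libraries thus held the highest values of all 3 genes.

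Of 8 tested Th17 genes 3 were higher (37.5%, near the same background). Rora, a nuclear receptor of Th17 and innate lymphoid cells, fell from 673, 824 and 1023 to 50.8 and 50.0 in WT, and went from 161, 149.5 and 113 to 93.9, 103 and 102 in libraries labelled Setdb1 KO (3.52 ± 0.36; limma, adjusted p = 4.29e-07). Ahr, the aryl hydrocarbon receptor gene, moved in opposite directions (3.19 ± 0.56), and Il17f, a Th17 cytokine gene, fell in WT only (4.57 ± 1.16). Ctla4, which encodes an inhibitory receptor, rose in both arms and more in libraries labelled Setdb1 KO, from 3634, 4306 and 3611 to 20294, 20582 and 14729, while WT went from 25434, 21367 and 24228 to 51252 and 52121 (1.12 ± 0.30; limma, adjusted p = 0.00678). WT stayed above libraries labelled Setdb1 KO throughout.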
